A study of Mus musculus with 6 samples.

Results

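Long intergenic RNAs are transcripts from the DNA between protein-coding genes. Examined here were 9501 probes for such regions, of 55681 non-control probes on the array, lying 10 to 100 kb from the nearest coding-transcript probe. The array design names each of these probes by the span and strand of a region, with F for the forward and R for the reverse strand. A probe was taken when its own position on mm9 lay more than 10 kb and at most 100 kb from the closest probe for a RefSeq coding transcript on the same chromosome, so the choice used positions and no signal. Distances, and upstream or downstream, are thus relative to a gene's probe and not to the gene's ends. Gene boundaries were not used for this, so a region probe can lie inside its nearest gene. The array carries 16181 probes of this naming in all, of which 3420 lay within 10 kb, 3142 lay beyond 100 kb and 118 had no usable position. The 9501 probes came from 2149 regions, 2782 region strands and 20 chromosomes, with a median of 3 probes per region strand and a median distance of 34.2 kb. Probes of 1 region strand address the same candidate transcript and are not independent of each other, although only 1.88% of neighbouring probe pairs overlapped in position. Some regions also overlapped each other, and merging them gave 1446 loci. A region is an annotated candidate, and a signal on its probe does not by itself define a transcript or its ends.

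The cells came from forelimb autopods, the hand plates, of C57BL/6 embryos at stage E11.5 that carried EGFP knocked into the Sox9 gene. Sox9 is the transcription factor that starts the cartilage programme, and its reporter marks the digit condensations and other Sox9-expressing mesenchyme. Both groups came from the same reporter strain and were described as mesenchymal, and the sort by EGFP was the only labelled difference between the 3 Sox9-EGFP positive and the 3 Sox9-EGFP negative samples. Each sample pooled about 10 autopods and was hybridised to 1 array, and the sources used here do not say whether samples came from separate litters, so p-values measure only the spread between these samples. By its title the study concerns digit patterning by Bmp, Sox9 and Wnt, and the question taken up here is which intergenic regions differed between cells with and without the reporter.

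Intergenic RNAs include nuclear architectural RNAs, host transcripts of small RNAs, antisense or divergent transcripts that start beside developmental regulators, and RNAs of imprinted domains. Limb regulators often sit beside wide non-coding intervals that hold enhancers, and RNA can be made from such intervals. Labelling of the sampled RNA was primed from poly(A) tails, so RNAs without a tail are poorly represented.

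The probes are 60-base oligonucleotides, and the sequences of those with large differences are given first, as they define what was measured. Positions are mm9, sequences are 5′ to 3′ and have the sense of the RNA detected, and capitals mark the poly(A) signal hexamers AATAAA and ATTAAA, searched on the probe strand only. The following probes read higher in Sox9-EGFP positive cells.
Rtl1 neighbourhood, forward strand, chr12:110865304-110865363: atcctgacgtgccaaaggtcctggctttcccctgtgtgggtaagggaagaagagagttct
Rtl1 neighbourhood, reverse strand, chr12:110871560-110871619: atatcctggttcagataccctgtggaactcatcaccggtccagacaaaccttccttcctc
Sall1 neighbourhood, forward strand, chr8:91574658-91574717: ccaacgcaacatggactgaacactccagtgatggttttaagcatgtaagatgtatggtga
Maml2 neighbourhood, forward strand, chr9:13352536-13352595: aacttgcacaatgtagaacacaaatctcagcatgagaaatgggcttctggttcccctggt
Jmjd1c neighbourhood, forward strand, chr10:66629128-66629187: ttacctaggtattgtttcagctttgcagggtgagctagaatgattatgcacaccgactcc
Frmd8 neighbourhood, reverse strand, chr19:5834543-5834602: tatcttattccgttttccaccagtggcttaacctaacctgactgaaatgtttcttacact
Sox4 neighbourhood, reverse strand, chr13:28952939-28952998: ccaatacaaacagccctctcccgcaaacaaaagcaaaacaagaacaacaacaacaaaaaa
Tbx5 neighbourhood, reverse strand, chr5:120280943-120281002: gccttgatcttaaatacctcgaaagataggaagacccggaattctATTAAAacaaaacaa

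The next set read lower in Sox9-EGFP positive cells.
Cyp1b1 neighbourhood, forward strand, chr17:80144297-80144356: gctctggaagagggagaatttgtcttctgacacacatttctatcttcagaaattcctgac
Hoxb9 neighbourhood, forward strand, chr11:96125513-96125572: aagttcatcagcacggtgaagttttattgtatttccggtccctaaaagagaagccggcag
Hoxb9 neighbourhood, reverse strand, chr11:96114981-96115040: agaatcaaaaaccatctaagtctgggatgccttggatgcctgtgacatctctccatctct
Rtp4 neighbourhood, forward strand, chr16:23560038-23560097: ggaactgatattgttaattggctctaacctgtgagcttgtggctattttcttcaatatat
Tex15 neighbourhood, forward strand, chr8:34667804-34667863: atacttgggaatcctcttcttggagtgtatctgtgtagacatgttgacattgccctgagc
Irx5 neighbourhood, reverse strand, chr8:94850258-94850317: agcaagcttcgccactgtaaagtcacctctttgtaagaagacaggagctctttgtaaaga
Among all 9501 region probes, 6.16% held either hexamer, against 17.3% of coding-transcript probes and 13.7% of all probes of this length. Of those shown above, only the Tbx5 probe does, and a hexamer is a description of the probe, not a mapped end of a transcript.

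The Sox9 probe checks the labels. On the scale used throughout, log2 signal relative to the array's own 75th percentile, it read 3.52, 2.99 and 3.60 on the positive arrays and -0.88, -1.0 and -1.13 on the negative arrays, a difference of 4.37 ± 0.20 (SE). Cartilage markers were higher in positive cells for 4 of 6 tested genes, and their summed level was 290 to 329 against 65.9 to 90.7 times the 75th percentile. Limb mesenchyme markers were above background on all arrays for 6 of 6 genes, of which 2 were higher and 2 lower in positive cells, with a summed level of 92.8 to 101 against 135 to 145. Muscle precursor markers were lower, with 2 of 4 tested genes called and a summed level of 0.139 to 0.258 against 0.597 to 1.31, while Pax7 and Myf5 were never above background. Of blood markers 1 of 4 tested genes was lower, with a summed level of 0.734 to 3.90 against 1.87 to 37.5, the highest on negative replicate 2. Of limb ectoderm markers 1 of 4, Fgf8, was higher. Their summed level, 13.8 to 27.8 against 7.77 to 9.92, came mostly from Trp63, which differed by 1.01 ± 0.30 and was not called. Krt14 and Epcam differed by -0.03 and -0.43 and were not called. Of Schwann cell markers 1 of 2 was higher, while 0 of 2 endothelial genes were called. The part of these cells in the results was not tested. The array of positive replicate 1 was dim, with a 75th percentile of 126 signal units against 385 to 478 on the other 5 arrays, and 1897 region probes well above background on it against 2904 to 4217. The number of arrays limits the precision, and in such bulk samples fewer cells of a type and less RNA per cell cannot be told apart.

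Most intergenic probes gave no usable signal. Testing required a signal well above background on every array of the positive group, the negative group or both, and 2648 of the 9501 region probes (27.9%) met this, against 63.3% of coding-transcript probes and 47.5% of all probes. A further 4675 region probes were above background on none of the 6 arrays. The tested probes came from 1125 regions and 1350 region strands. Of them 1706 passed through both groups, 873 through the negative group alone and 69 through the positive group alone. Positive replicate 1, the dim array, had the fewest region probes above background, and its part in this imbalance was not tested. A probe that passed through 1 group alone tends to read higher in that group. A shared direction among such probes is therefore no agreement between them. Where they were measured, region probes were faint, with a median level of -2.39 over the 6 arrays against 0.85 for coding-transcript probes.

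Between the groups, 329 region probes differed (limma with Benjamini-Hochberg adjustment over all 26473 tested probes, threshold 0.05), 188 higher and 141 lower in Sox9-EGFP positive cells. With slide as a block there were 435, 269 higher and 166 lower. The 329 are 12.4% of the tested region probes, against a background of 21.6% of all tested probes called. In each direction the background was 7.96% called higher and 13.7% called lower. The 329 probes came from 201 region strands and 156 loci, and 181 of them differed by at least 2-fold, 99 higher and 82 lower. The values of the groups did not overlap for 723 region probes (27.3%), against 43.2% of all tested probes. The share of region probes called was below that of coding-transcript probes at every level of signal. Among the faintest of 4 equal classes of all tested probes, a class that holds 53.6% of the tested region probes, 10.5% of region probes and 21.6% of coding-transcript probes were called. In the brightest class the shares were 22.9% and 30.8%. The median SE of the log2 difference was 0.29 for region probes and 0.17 for coding-transcript probes.

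The balance of higher against lower depended on the scaling between arrays. The median log2 difference of the tested region probes was 0.19 and that of all tested probes -0.10, and under quantile normalization these became -0.01 and -0.06. Taken slide by slide, with a positive and a negative array on each of the 3 slides, the region median was 0.25, 0.12 and 0.14. Without positive replicate 1 it was 0.03, yet the calls were then 261 higher and 164 lower (61.4% higher). Among probes above background on all 6 arrays the calls were 184 higher and 88 lower (67.6% higher). Higher calls made up 57.1% of the calls as reported, 38.5% under quantile normalization (92 higher and 147 lower), 44.3% after normexp background correction with quantile normalization (93 and 117) and 43.4% on the authors' log2 values (92 and 120). Across those scalings and centring on the median of tested probes, 77 of the 188 higher and 96 of the 141 lower probes were called every time. The excess of higher over lower calls is therefore not a stable property of these regions.

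**Figure D1:**
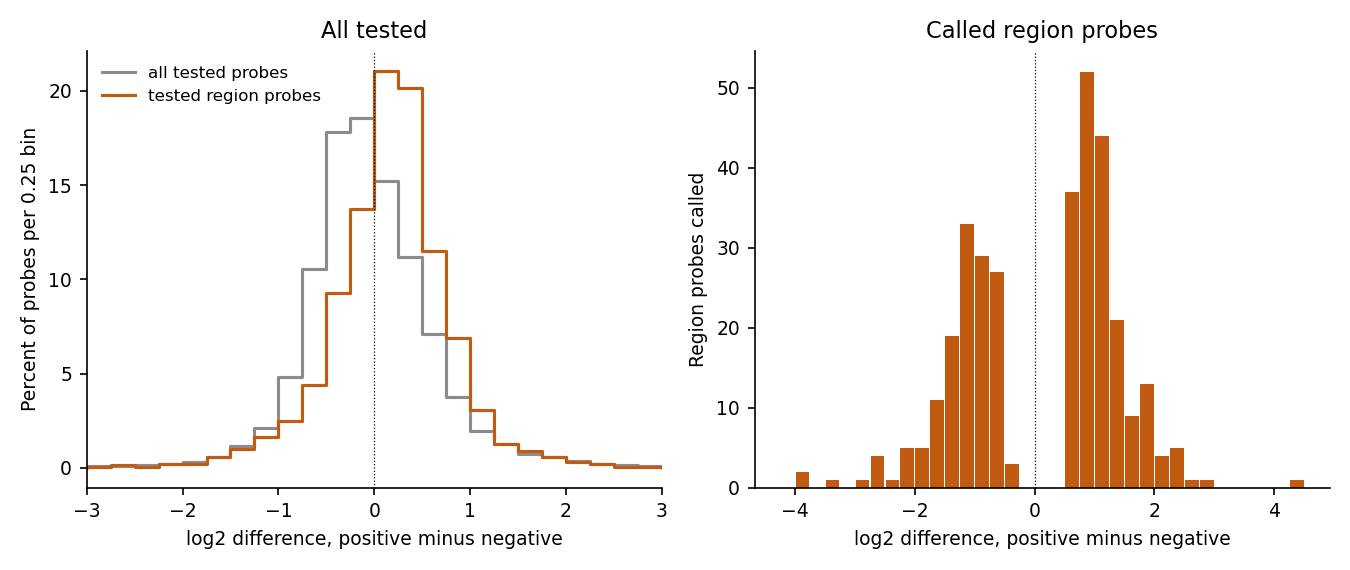
Left, the percent of tested region probes (orange) and of all tested probes (grey) per 0.25 bin of the log2 difference, positive minus negative; right, the number of called region probes per bin. The region curve is shifted to the right, with a median of 0.19 against -0.10, a shift that is smaller under quantile normalization, with medians of -0.01 and -0.06.

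Probes of the same region strand seldom gave opposite calls. Of 649 region strands with at least 2 tested probes, 148 had a called probe, of which 71 had only 1 called, 77 had at least 2 and 34 had all. Probes were called in opposite directions in 1. The median range between the probes of a region strand was 0.35 on the log2 difference, against a median absolute difference of 0.37 over all tested region probes.

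The most extended group of higher regions lay in the imprinted Dlk1-Dio3 domain on chromosome 12, next to Rtl1, a retrotransposon-derived gene expressed from the paternal copy. Of 38 region probes nearest to Rtl1, 19 were tested and 15 were called, all higher in Sox9-EGFP positive cells, with a median difference of 1.81. Regions from 110842149 to 110940553 held all 15, at 16.0 to 85.2 kb from the Rtl1 probe. On the forward strand 13 of 14 tested probes were called and on the reverse strand, the strand of Rtl1, 2 of 5. The forward probe at 36.9 kb read 1.88, 1.59 and 1.57 in positive cells and -0.27, -0.38 and -0.52 in negative cells, a difference of 2.07 ± 0.15 (SE, limma adjusted p = 0.00105). All positive arrays lay above all negative arrays, and the call held without any single array. Farther out, the probe at 67.8 kb read 1.39, 0.46 and 0.60 against -0.56, -1.40 and -1.54, and the probe at 85.2 kb read -0.53, -1.50 and -0.93 against -2.66, -3.19 and -2.82. Both also separated the groups completely, and the call at 67.8 kb was lost without negative replicate 3 (limma adjusted p = 0.0603). On the reverse strand, the probe at 43.1 kb read -2.51, -4.27 and -3.58 and was not well above background on any negative array. Positive cells were thus at least 2.23-fold higher there. The fitted log2 difference of that probe was called (limma adjusted p = 0.00902), and the bound itself was not tested. That probe was not called after normexp correction or on the authors' values.

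Maternally expressed non-coding RNAs of this domain run on the forward strand, and probes for them lie on both sides of these regions. All 3 probes of Meg3, the first RNA of that series, were higher by 1.82 to 1.97, the Mirg probe, at the far end, was higher by 1.49 ± 0.20, and both probes of the paternally expressed Dlk1 were higher by 1.72 and 1.85. The Rtl1 probe was well above background on 1 array only and was not tested, and Dio3 differed by 0.61 ± 0.47 without passing the test. The called forward regions between Meg3 and Mirg thus had differences of 1.23 to 2.41, a range that includes those of the annotated RNAs beside them. A probe annotated to B830012L14Rik inside 1 of these regions went otherwise. It differed by -0.23 ± 0.33 and was not called (limma adjusted p = 0.666), while both tested region probes there were called, with a median of 1.68. Without positive replicate 3 there were 9 calls among the 19 tested region probes, and under quantile normalization, normexp correction or the authors' values 10 or 11.

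Upstream of Sall1, a zinc-finger transcription factor of limb and organ development, a forward-strand region divergent from the gene was higher in positive cells. Of 10 tested probes in this neighbourhood 8 were called, with a median difference of 2.07. The strongest, 23.3 kb from the Sall1 probe in chr8:91569369-91594119, read 1.70, 1.52 and 1.15 against -1.0, -0.78 and -1.17, a difference of 2.44 ± 0.19 (limma adjusted p = 0.00133). A neighbouring probe read 0.69, 0.64 and 0.29 against -1.77, -1.67 and -2.02. The groups did not overlap for either, and 7 of the 8 probes kept their call without any single array and all 8 under each scaling. On the reverse strand of the same region 1 of 2 tested probes was called, at 0.86 ± 0.19. A separate probe annotated to Gm3134 inside the region was higher by 1.89 ± 0.16, and Sall1 itself by 1.52 ± 0.24 (limma adjusted p = 0.00981).

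Downstream of Sox4, a SoxC transcription factor of progenitor cells, 5 of 6 tested probes were higher, all on the reverse strand shared with Sox4 and 67.7 to 95.7 kb away. The probe at 89.9 kb read -1.28, -0.93 and -0.90 against -2.80, -2.01 and -2.59, a difference of 1.43 ± 0.24 (limma adjusted p = 0.0116). The positive arrays were all above the negative arrays. Sox4 itself was higher on all 3 of its probes, by 0.97 to 1.21. No call remained in this neighbourhood without positive replicate 3, 1 was made without each negative array and 2 without positive replicate 2, and 3 were made under quantile normalization, normexp correction or the authors' values.

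Further single probes were among the largest higher differences. At Maml2, which encodes a Notch coactivator, the region probe 71.6 kb upstream of the gene's probe read -1.99, -1.0 and -0.96 against -4.31, -3.44 and -3.77. That is a difference of 2.53 ± 0.36, and Maml2 itself was higher by 1.86 ± 0.22. At Jmjd1c, a histone demethylase family gene, a same-strand region probe 89.8 kb upstream of the gene's probe read -2.17, -1.53 and -1.13 against -3.86, -3.92 and -3.54. Near Jmjd1c 3 of 4 tested probes were called, and 2 under quantile normalization, normexp correction or the authors' values. Jmjd1c itself was higher by 0.94 ± 0.19 (limma adjusted p = 0.0196), and whether these region probes lie inside the gene was not determined. Near Prss48 all 3 tested probes were higher by 1.47 to 1.6 and kept their calls without any single array and under each scaling. A region probe near Ndst1 on chromosome 18 read -2.22, -2.64 and -3.02 in positive cells and was not well above background on any negative array. A probe annotated to Synpo with the same sequence was well above background on all 6 arrays and was higher by 1.32 ± 0.21. Ndst1 itself did not pass the test on any of its 3 probes.

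The largest single difference was in a reverse-strand region 16.7 kb from Frmd8, and it was uneven between replicates. It read 0.90 on positive replicate 1, -2.85 and -2.90 on the other positive arrays, and was not well above background on any negative array, so positive cells were at least 7.94-fold higher (limma adjusted p = 0.0346). That bound was 3.32-fold without positive replicate 1, and 12.2-fold and 12.4-fold without positive replicates 2 and 3. The call was lost in 4 of 6 fits that left out 1 array, namely positive replicate 3 and each negative array, with adjusted p up to 0.109, and under quantile normalization, normexp correction and the authors' values. This region ends 6.37 kb from the span the array gives for NEAT1, on the same strand and on its 3′ side. Neat1 scaffolds nuclear paraspeckles and has a short form and a longer form that runs on in that direction. Of the array's 5 NEAT1 probes, 4 were called higher, and all 5 differed by 1.23 to 1.38.

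Other higher loci carried annotated non-coding RNAs. Near Tas2r119, 8 of 10 tested probes were higher by 0.75 to 0.91, and all 8 kept their call without any single array and under each scaling. Their reverse-strand region contains Snord123, a small nucleolar RNA, whose probe was higher by 0.75 ± 0.11. One of its region probes read 2.85, 2.81 and 2.80 against 1.97, 1.93 and 1.96, a small difference with little spread. Near Mas1, 5 of 8 tested probes were higher, in 3 regions. Probes of Airn, the RNA that silences Igf2r in cis, lie in 1 of these regions, whose single tested region probe was higher by 1.15 ± 0.25. Of 4 Airn probes on the array 3 were called, higher by 0.81 to 1.23, and those 3 lie in that region. There were 3 calls near Mas1 under quantile normalization, normexp correction or the authors' values, and 1 or 2 without any array other than positive replicate 1. Near Mecom, which encodes a zinc-finger transcription factor, 5 of 24 tested probes were higher. Both Mecom probes on the array were also called higher, by 0.71 and 1.11, and whether the region probes lie inside the gene was not determined. There were 0 region calls without positive replicate 3 or without negative replicate 3, and 1 without positive replicate 2 or negative replicate 1. There were 3 without negative replicate 2 and 21 without positive replicate 1. Under quantile normalization 1 was called, and 2 after normexp correction or on the authors' values.

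**Figure D2:**
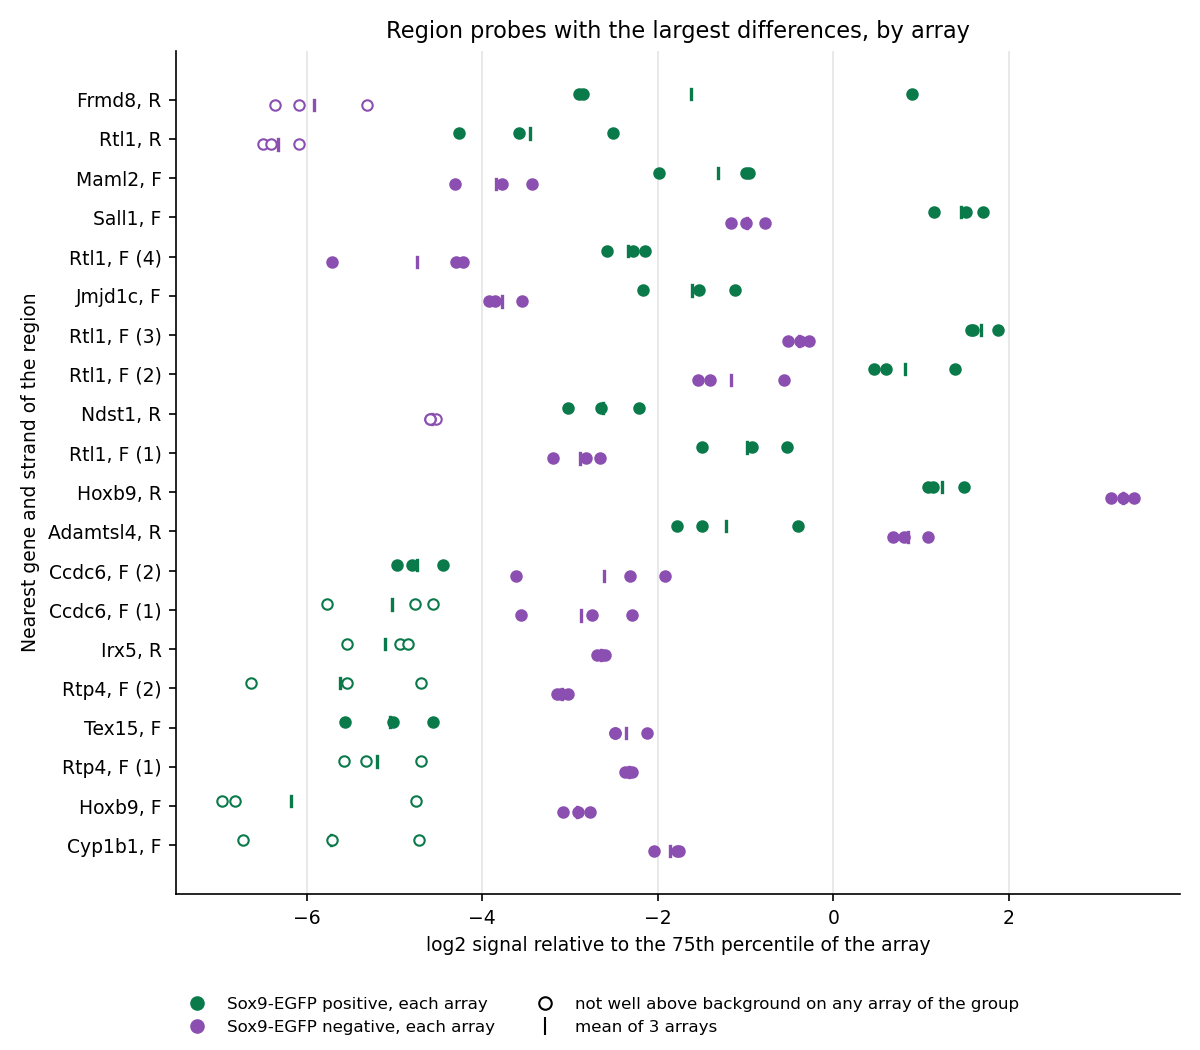
Signal of the 10 most increased and 10 most decreased region probes on each array, as log2 relative to the array's 75th percentile; green points are Sox9-EGFP positive arrays, purple points negative arrays, bars the means of 3 arrays, open points groups not well above background on any array. Labels give the nearest gene and the strand, numbered where several share them. The Frmd8 probe is the only one in which a single positive array stands apart by more than 3 log2 units.

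Among lower regions, the largest difference was 37.7 kb upstream of Cyp1b1, a cytochrome P450 that metabolises retinoids and steroids. In chr17:80133213-80144417 on the forward strand, opposite to Cyp1b1, a probe read -1.78, -1.76 and -2.04 in negative cells and was not well above background on any positive array. Negative cells were therefore at least 4.61-fold higher (limma adjusted p = 0.00534). As for other such bounds, the p is that of the fitted log2 difference, and the bound itself was not tested. A second probe of the region gave at least 3.04-fold, and both kept their call without any single array and under each scaling. Cyp1b1 itself fell by 2.15 ± 0.46 on the log2 scale. Of the 141 lower probes, 21 had no positive array well above background, while 4 of the 188 higher probes had no such negative array, so bounds of this kind concern mostly the lower side. The lowest signal that counted as well above background was -2.73 on the dim array, positive replicate 1, and -4.53 to -4.77 on the other arrays. Its part in this split was not tested. A further 41 lower and 7 higher probes had only 1 or 2 arrays of the dimmer group well above background, and their log2 differences are less certain in size.

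Beside Hoxb9, a posterior Hox gene, both strands of overlapping regions held a lower probe. On the reverse strand, opposite to Hoxb9 and 22.7 kb away, a probe read 1.49, 1.08 and 1.13 against 3.17, 3.43 and 3.29, and fell by 2.06 ± 0.16 (limma adjusted p = 0.00133), with no overlap. On the forward strand, a probe 12.2 kb away read -2.91, -2.77 and -3.07 in negative cells and was not well above background in positive cells, a difference of at least 2.21-fold. Omitting positive replicate 3, or either of negative replicates 1 and 3, ended that call (adjusted p up to 0.0590). A probe for transcript ENSMUST00000107676 has the identical sequence and is no independent measure of it. The other 5 tested probes of this neighbourhood did not pass the test, though under quantile normalization 4 of the 7 did. Hoxb9 itself was not well above background on any positive array and was at least 5.05-fold higher in negative cells (limma adjusted p = 0.00402).

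Upstream of Rtp4, an interferon-inducible gene, all 3 tested probes were lower, and none of them was well above background on any positive array. They entered the test through the negative group alone, so their shared direction follows largely from the filter and is no agreement between probes. The probe at 53.6 kb read -2.33, -2.29 and -2.38 in negative cells, at least 3.32-fold higher than in positive cells (limma adjusted p = 0.00152). The other pair, at 78.5 and 78.8 kb, gave at least 2.96-fold and at least 1.96-fold, and the call of the latter ended on omitting the same arrays as at Hoxb9, positive replicate 3 and negative replicates 1 and 3 (adjusted p up to 0.0650). Rtp4 differed by 0.25 ± 0.41 and was not called (limma adjusted p = 0.716). Near Tex15, a germ-cell gene, 3 of 5 tested probes were lower, and 5 after normexp correction or on the authors' values. The probe with the smallest adjusted p read -2.49, -2.13 and -2.49 in negative cells and was well above background on 1 positive array only (limma adjusted p = 0.00285). Tex15 was lower too, with 2 of 3 positive arrays well above background.

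Divergent from Irx5, an Iroquois homeobox gene of limb patterning, a reverse-strand probe 34.6 kb upstream read -2.60, -2.64 and -2.69 in negative cells and was not well above background in positive cells, at least 2.67-fold lower there (limma adjusted p = 0.00163). Irx5 itself was not well above background on any of the 6 arrays. Upstream of Adamtsl4 a reverse-strand probe read -0.41, -1.79 and -1.49 against 0.67, 1.08 and 0.80 and fell by 2.08 ± 0.37. Leaving out positive replicate 3 or either of negative replicates 1 and 3 ended its call (adjusted p up to 0.0578). Another probe of the same region strand differed by 1.90 in the opposite direction and was not called.

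A pair of overlapping probes beyond Ccdc6 was lower, and muscle precursor markers moved the same way. The bases that both probes cover are in capitals here.
Ccdc6 neighbourhood, first probe, chr10:69682331-69682390: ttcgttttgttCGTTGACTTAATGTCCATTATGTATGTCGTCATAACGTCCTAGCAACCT
Ccdc6 neighbourhood, second probe, chr10:69682342-69682401: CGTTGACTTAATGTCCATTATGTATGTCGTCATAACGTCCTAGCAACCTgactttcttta
They share 49 of 60 bases. The first read -2.75, -2.30 and -3.56 in negative cells and was not well above background in positive cells, at least 2.23-fold lower there. The second read -2.31, -1.91 and -3.61 in negative cells and was well above background on 1 positive array. Of 8 tested probes near Ccdc6, 5 were lower and none of the others was called. None of the 5 was above background on all 6 arrays, so the filter favoured their shared direction. The 1 probe that met this stricter filter differed by 0.26 and was not called. Without a background filter 0 of 16 probes were called. The region holds a probe of Mrln, which encodes a micropeptide of striated muscle, and that probe was at least 2.07-fold lower in positive cells. Pax3, a regulator of migrating muscle precursors, read -1.95, -1.67 and -2.37 in negative cells and was not well above background in positive cells. Lbx1, a homeobox gene of the same cells, read -0.54, -0.61 and -2.01 in negative cells and was well above background on 1 positive array. The part of muscle precursors in this result was not tested. No call near Ccdc6 remained without negative replicate 1, without negative replicate 2 or without positive replicate 3, and 4 were made after normexp correction or on the authors' values.

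Several lower loci held many probes with modest differences. Near Neu1, a lysosomal sialidase gene, 12 of 16 tested probes were lower, 5 of 9 on the forward and 7 of 7 on the reverse strand of chr17:35080914-35090009, with a median of -1.11. A reverse-strand probe there read 1.14, 1.36 and 1.28 against 2.40, 2.45 and 2.64, and a forward-strand probe 1.90, 2.07 and 1.75 against 3.14, 3.54 and 3.56. The groups did not overlap on either strand, while Neu1 itself differed by 0.19 ± 0.14 and was not called. There were 5 calls without negative replicate 3 or positive replicate 3, and 6 without negative replicate 1, and 9 to 11 under quantile normalization, normexp correction or the authors' values. Near Lbp, 8 of 12 tested probes were lower, with differences of -1.28 to -0.81, in a reverse-strand region that holds Snhg17, a small nucleolar RNA host gene whose own probe fell by 1.07 ± 0.14. Of these 8 calls, 7 held without any single array. In the region near Usp46 7 of 20 tested probes were lower, and it holds Dancr, a non-coding RNA known for restraining differentiation, which fell by 0.65 ± 0.15 on a probe with the sequence of a region probe. Usp46 itself was higher by 0.57 ± 0.14 (limma adjusted p = 0.0335). Near Usp46 there were 3 calls under quantile normalization, normexp correction or the authors' values, 0 without negative replicate 3, and 1 to 4 without each of the other arrays. All 6 tested probes near Myo1g were lower, with differences of -1.61 to -0.82. Only 2 of them were above background on all 6 arrays, so the filter favoured this shared direction. Those 2 were also called lower when all 6 arrays had to be above background, and without a background filter 2 of 17 probes were called. On leaving out positive replicate 3 or either of negative replicates 1 and 3, 3 of the tested probes were called. Near Smad7, a feedback inhibitor of TGF-beta and BMP signalling, 5 of 11 tested probes were lower, with differences of -1.16 to -0.93, and 3 were called without negative replicate 1. The strongest of these by its adjusted p read 1.57, 1.82 and 1.95 against 2.75, 2.72 and 2.84 (limma adjusted p = 0.00827), and Smad7 itself differed by -0.69 ± 0.82 and was not called.

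**Figure D3:**
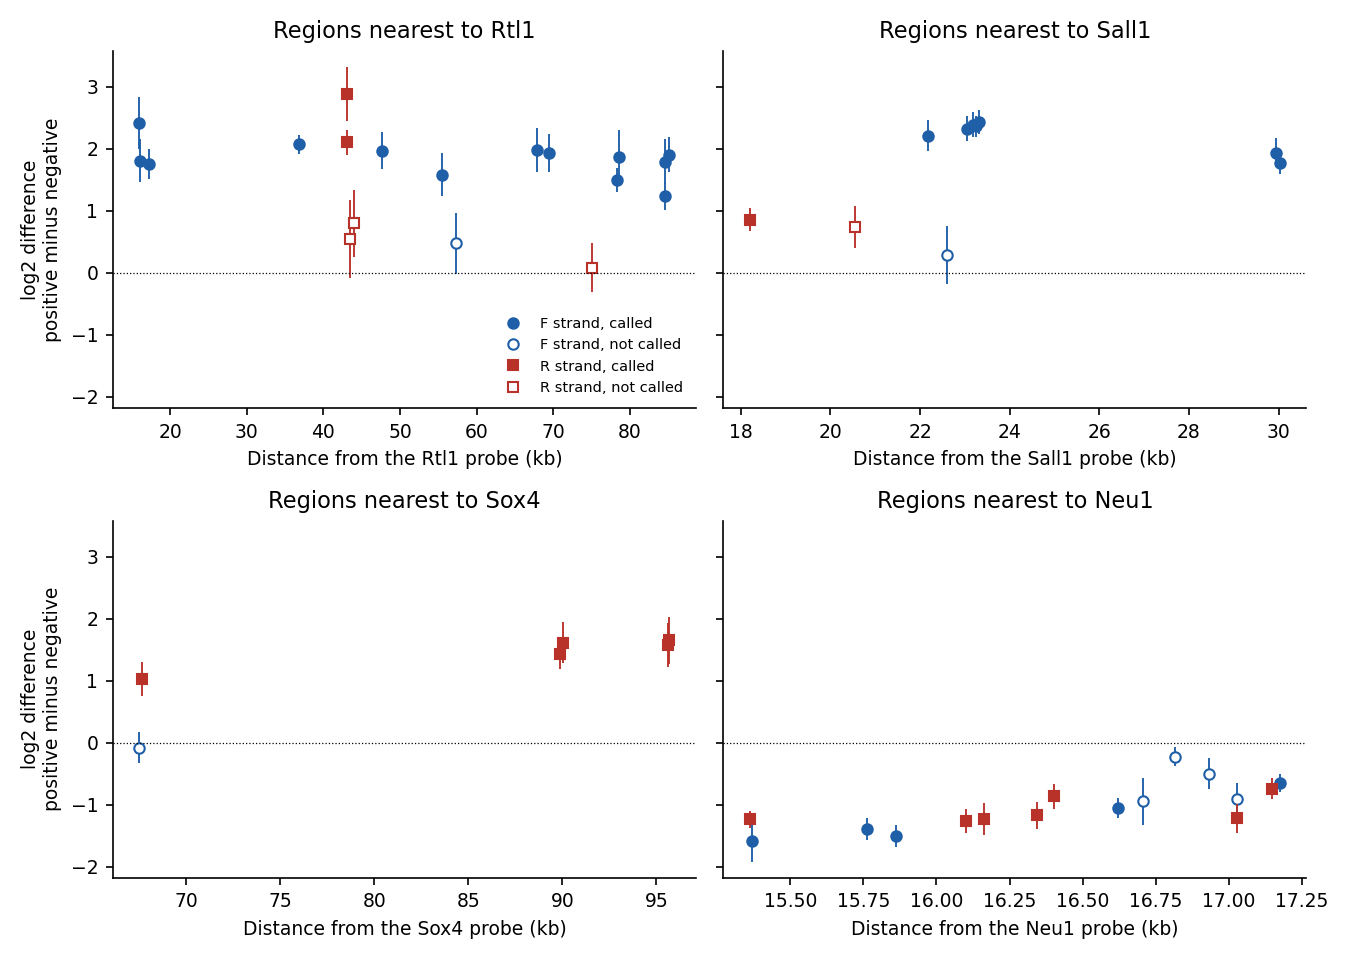
Log2 difference, positive minus negative, of each tested region probe against its distance in kb from the probe of the nearest gene, for 4 neighbourhoods; bars are SE, circles forward and squares reverse strand, filled symbols called. Called probes near Rtl1 (15), Sall1 (8) and Sox4 (5) lie above 0, and the 12 near Neu1 below 0 on both strands.

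The genes next to the regions were grouped by lists of limb and signalling genes, 201 genes in all, of which 28 were the nearest gene of a region probe and 17 of a tested one. Of 59 tested probes beside those genes, 25 were called (42.4%), against 12.4% of tested region probes and 21.6% of all tested probes. Of the 25, 15 lay beside Sall1, Sox4 and Tbx5. The lists were chosen with earlier results of these data known, so these shares are a description and no sign of enrichment. For limb and skeletal transcription factors, 19 of 37 tested probes were called, 16 higher (Sall1, Sox4, Tbx5 and Twist2) and 3 lower (Eomes and Irx5). For BMP and TGF-beta genes, 5 of 15 were called, all lower and all beside Smad7. For FGF and hedgehog genes, 1 of 7 was called, beside Spry1. No region probe beside a Wnt gene or a cartilage matrix gene was tested, out of 6 and 3 on the array. Each neighbourhood counts several probes of the same region strands.

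Within those lists, the Tbx5 neighbourhood held small differences. Tbx5 specifies the forelimb, and a reverse-strand probe 53.1 kb upstream of the Tbx5 probe read 1.92, 2.0 and 1.98 against 1.30, 1.26 and 1.20. That is a difference of 0.72 ± 0.11 (limma adjusted p = 0.0101), with no overlap. Its distance from the start of Tbx5 was not determined. Tbx5 itself was higher by 1.02 ± 0.17. Of 4 tested probes there 2 were called, 0 without negative replicate 3, and 1 under quantile normalization, normexp correction or the authors' values. At Twist2, a basic helix-loop-helix factor of mesenchyme, the single called probe was higher by 0.71 ± 0.19, and that call was lost under quantile normalization, normexp correction and on the authors' values (limma adjusted p up to 0.464), with slide as a block, and without any array other than positive replicate 3.

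Region probes and their nearest gene, where that gene had a tested probe, were weakly related. Region probes whose nearest gene had none, such as those beside Rtl1, were left out. Over 2173 pairs with 635 genes, the Pearson correlation of the log2 differences was 0.20 and the Spearman correlation 0.19, as a description across pairs that share arrays and often share a gene. It was 0.37 (Pearson) for region probes within 10 kb and 0.10 beyond 100 kb. Of 260 called region probes with a tested gene, 75 had a gene called in the same direction (34 higher, 41 lower), 25 a gene called in the opposite direction, and 160 a gene that was not called. Many of these probes share a locus: of the 25, 7 lay beside Usp46 and 5 beside Riox1, so they are not separate cases. The difference between region and gene was itself called for 131 pairs (6.03%), against 6.02% of all such pairs on the array. That number was 13 to 54 without any array other than positive replicate 1, 214 without that array, and 271 with slide as a block. After normexp correction it was 214 and on the authors' values 215.

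**Figure D4:**
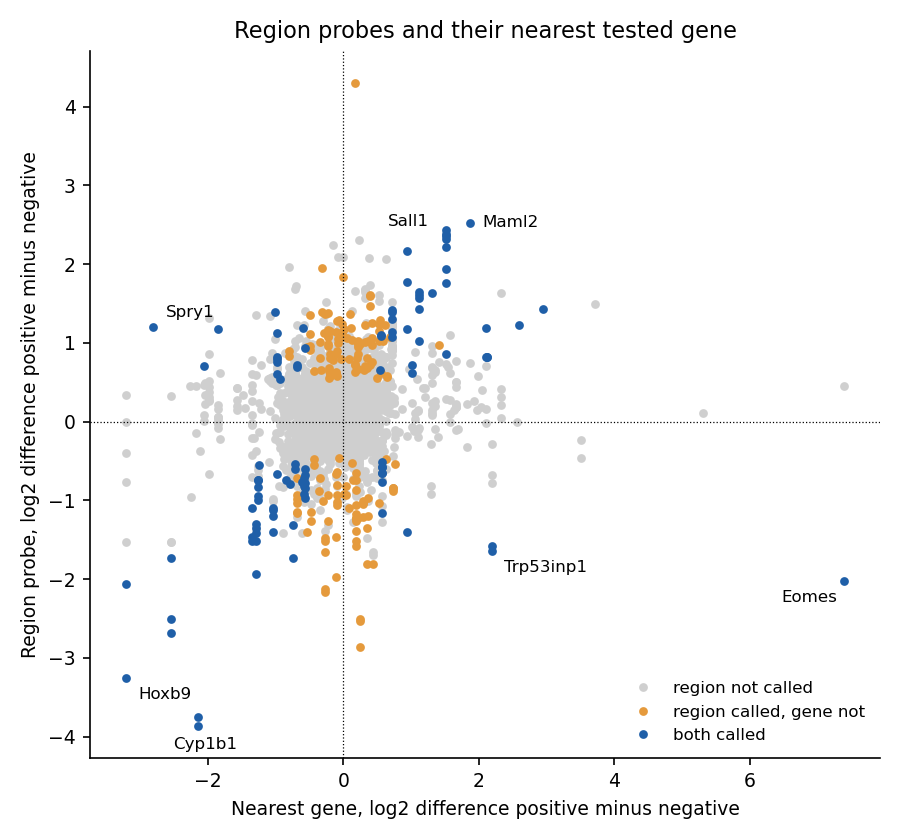
Log2 difference, positive minus negative, of each tested region probe (vertical) against that of its nearest coding gene (horizontal), where that gene had a tested probe, 2173 pairs. Blue points, where both were called, lie mostly in the lower left (41) and upper right (34) quadrants, and 25 lie in the other 2 quadrants, Eomes, Spry1 and Trp53inp1 among them.

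At Eomes, a T-box factor, region and gene were called in opposite directions. The forward-strand region 80.3 kb upstream, on the strand of Eomes, read 0.96, 0.70 and 0.65 against 2.73, 2.78 and 2.89 and fell by 2.03 ± 0.14 (limma adjusted p = 0.000951). Its call held without any single array and under each scaling. The tested Eomes probe read 1.07, 1.78 and 2.20 in positive cells and -4.34, -5.90 and -6.84 in negative cells, where 1 of 3 arrays was well above background. The second Eomes probe was well above background on 2 positive arrays and no negative array, and was not tested. The difference of the region from the gene was called (limma adjusted p = 0.00293).

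At Spry1, a feedback inhibitor of FGF signalling, the direction was the reverse. The region 25.3 kb downstream read -0.62, -0.89 and -0.86 against -1.88, -1.59 and -2.50, a rise of 1.20 ± 0.25, while Spry1 fell by 2.80 ± 0.24, and the difference between them was called (limma adjusted p = 0.00444). The call of the region itself was lost without negative replicate 1, positive replicate 2 or positive replicate 3. Near Trp53inp1, a p53-induced gene, a reverse-strand probe 10.6 kb away was lower and the gene rose by 2.19 ± 0.16 (adjusted p of the limma difference = 0.00262). That region probe read -3.33, -3.53 and -3.19 in negative cells and was well above background on 1 positive array. For Ntrk2, a neurotrophin receptor, the region probe 14.7 kb away read 1.13, -0.14 and 0.60 against 0.83, 0.85 and -0.42, with overlapping groups, while Ntrk2 was at least 8.91-fold higher in positive cells. The region 18.4 kb from Samd5 differed by 0.33 ± 0.16 and was not called, while Samd5 was at least 3.06-fold lower in positive cells.

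Opposite strands of 1 region could be compared in 216 cases, of 633 regions with probes on both strands. No pair differed between strands at an adjusted p of 0.05 (limma, 0 of 370 pairs over all distances, 0% called), and 18 of the 216 had an unadjusted p under 0.05. After normexp correction and on the authors' values 3 pairs were called, and with array weights 1. The log2 differences of the strands correlated at 0.29 across the pairs, and both strands were called in the same direction in 4 regions and in opposite directions in 0. The smallest adjusted p was 0.0930, for the Eomes region, whose probes are these.
Eomes neighbourhood, forward strand, chr9:118314102-118314161: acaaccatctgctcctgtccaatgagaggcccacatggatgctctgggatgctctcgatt
Eomes neighbourhood, reverse strand, chr9:118305957-118306016: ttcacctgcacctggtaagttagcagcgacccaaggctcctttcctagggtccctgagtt
The reverse-strand probe read -2.71, -3.19 and -3.64 against -3.57, -3.13 and -4.17, with overlapping groups. A pair near Acox3 shows the same stretch of genome read from both strands, with the 34 bases that both probes cover in capitals.
Acox3 neighbourhood, forward strand, chr5:35976912-35976971: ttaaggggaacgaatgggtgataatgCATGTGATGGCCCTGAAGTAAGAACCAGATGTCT
Acox3 neighbourhood, reverse strand, chr5:35976938-35976997: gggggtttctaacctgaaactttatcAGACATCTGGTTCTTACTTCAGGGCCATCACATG
Here the forward probe read 3.60, 3.07 and 2.62 against 3.67, 3.95 and 3.81, and the reverse probe 3.39, 2.75 and 2.78 against 2.61, 2.68 and 2.14. The difference between them was -1.21 ± 0.33 (limma adjusted p = 0.362), and neither strand was called by itself. Near Ggt7 the forward probe fell by 1.02 ± 0.19 and the reverse probe differed by 0.47 ± 0.19, and near Adam4 the values were -1.0 ± 0.23 and 0.27 ± 0.25.

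Other array probes lying inside these regions on the same strand gave a second reading. There were 523 such probes, and for 201 pairs in which both were tested the correlation of the log2 differences was 0.64. Of these, 49 were called, 23 higher and 26 lower, and 44 of the 49 had the sign of the region's median. In 17 cases of the 523 the sequence was identical to that of a region probe, so those are repeats of 1 measurement.

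Calls were also counted by distance and orientation, and differences between these classes were not tested. Of tested probes 11.6% were called at 10 to 20 kb, 12% at 20 to 30 kb, 11.9% at 30 to 50 kb and 14% at 50 to 100 kb. The direction varied more, with 38.3% of calls higher at 20 to 30 kb and 69.8% at 50 to 100 kb, but each bin holds a few loci with many probes, such as those near Rtl1. By orientation 11.4% of same-strand upstream, 13.2% of same-strand downstream, 12.7% of opposite-strand upstream and 12.4% of opposite-strand downstream probes were called. For comparison, 13% of region probes within 10 kb and 16.4% beyond 100 kb were called. At the limits, the probe just inside 10 kb (10.01 kb, near Mecom) was not above background on any array and that just outside (9.99 kb, near Tmem171) was above it on 2 arrays of each group. The probe just inside 100 kb (99.95 kb, near Srp9) had means of -0.51 and -1.87 in positive and negative cells, and that just outside (100.1 kb, near Atp11b) was not above background on any array.

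Among the brightest region probes, the following 3 were not called. Their sequences, with poly(A) hexamers in capitals, are these.
B3gnt2 neighbourhood, reverse strand, chr11:22686751-22686810: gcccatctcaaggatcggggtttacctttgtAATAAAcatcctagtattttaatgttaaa
Riok2 neighbourhood, reverse strand, chr17:17482318-17482377: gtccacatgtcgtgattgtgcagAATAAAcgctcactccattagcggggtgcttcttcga
Akap11 neighbourhood, forward strand, chr14:78936616-78936675: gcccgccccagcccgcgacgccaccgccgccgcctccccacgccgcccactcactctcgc
The B3gnt2 probe read 9.18, 8.60 and 8.40 against 8.87, 8.86 and 8.72, and the Akap11 probe 9.0, 8.04 and 8.0 against 8.26, 8.11 and 8.02. Their groups overlapped. The Riok2 probe read 8.42, 8.22 and 8.14 against 8.70, 8.49 and 8.62, which do not overlap, but the difference of -0.34 ± 0.14 did not pass the test.

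Some region probes matched known promoters. The sequences of 94 region probes occur exactly in RefSeq promoter windows of GRCm38.p6, for 63 genes, 40 on the strand of the gene and 54 on the other strand. Of the 34 tested ones 2 were called, both higher, the probe matching the Numb promoter on the strand of the gene by 0.61 ± 0.16 and the probe matching the Scaper promoter on the other strand by 0.55 ± 0.15. Both calls were lost without any array other than positive replicate 1 and under quantile normalization, normexp correction and on the authors' values, and that of the Numb probe also with slide as a block. Distances here are between probes, so such a region can lie at the start of a gene whose own probe is over 10 kb away, as for Dedd (12.3 kb) and Tgif2 (13.7 kb). GC content had a median of 45.0% in region probes and 41.7% in coding-transcript probes.

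**Figure D5:**
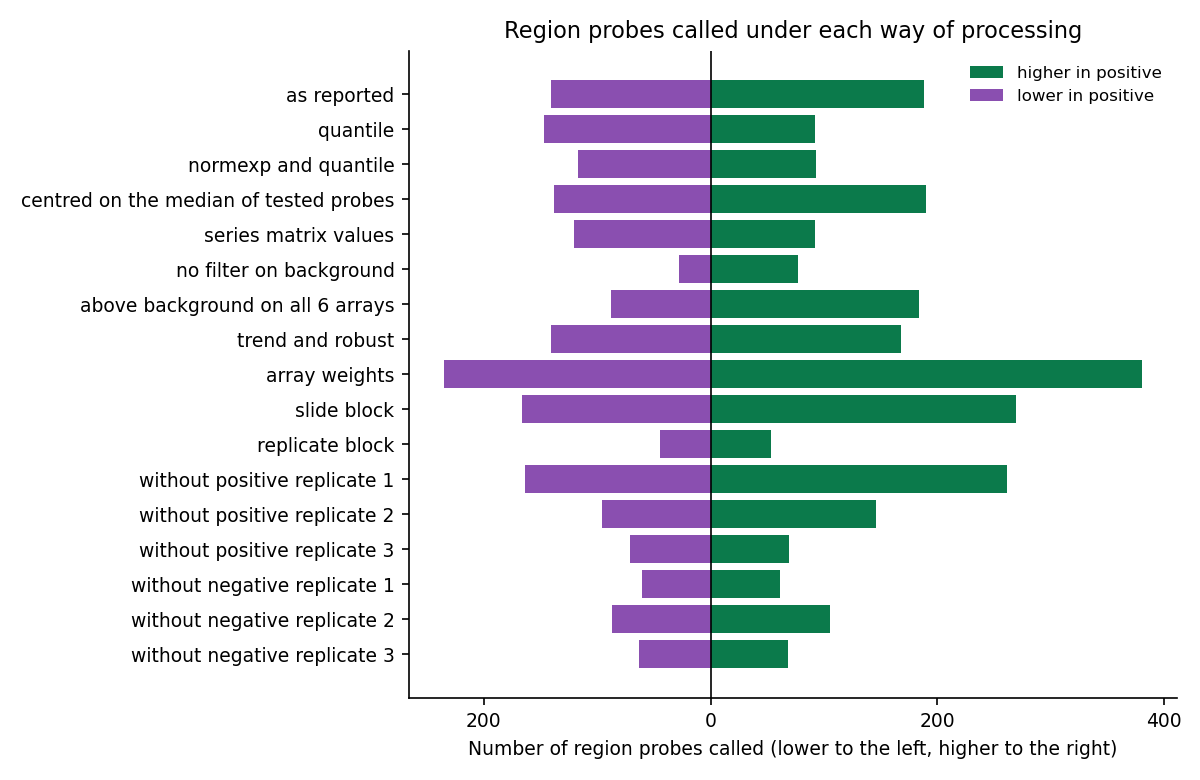
Number of region probes called higher (green, to the right) and lower (purple, to the left) in Sox9-EGFP positive cells under each way of processing and with each array left out. The count runs from 98 with a block for replicate number to 615 with array weights, and higher calls outnumber lower ones as reported (188 and 141) but not under quantile normalization (92 and 147).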

How the data were processed

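Total RNA of 3 Sox9-EGFP positive and 3 negative samples was hybridised to 1-colour Agilent arrays. Per the file headers, the authors' intensity values come from Feature Extraction 10.7.3.1. The authors also deposited a matrix of log2 values for the same arrays; its 6 columns share a median of 6.41, and how it was background-corrected and scaled is not given in these sources.

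Processed intensities were taken as log2 minus each array's 75th percentile over 59305 non-control spots, and replicate spots of a probe were averaged. A limma 3.58.1 model (R 4.3.3) compared the groups over all tested probes, with Benjamini-Hochberg adjustment at 0.05; limma was tested on simulated data. An exact permutation test of 3 against 3 arrays cannot give p below 0.1, so calls rest on variance shared between probes. "At least N-fold" sets the brighter group's mean against the lowest signal well above background in the other group, or the probe's own if higher. An adjusted p beside such a bound is that of the fitted log2 difference, and the bound was not tested. Differences region minus gene and forward minus reverse strand were fitted per array. Nearest genes are named in RefSeq by accession, by symbol or by an older symbol (26300, 2044 and 355 of all probes).

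Probes named are Sox9, the 10 largest called differences in each direction, called probes beside listed genes, the 4 brightest, and the 4 strongest differences between strands and from the nearest gene; other named probes and genes were chosen after their values were seen. The result for 1 of the brightest probes is not reported here. Members and lists were chosen with earlier results of these data known. Slides hold 1 array per group, and deviations of same-slide arrays from their group means correlated at 0.56, 0.41 and 0.24. Alternatives were other scalings, filters, moderation, array weights, slide and replicate blocks, thresholds, and leaving out each array.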

Additional observations from a re-analysis of the deposited data

How the results depend on the processing

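With 3 arrays per group the counts moved with most choices, and signal over background limits what the faint probes can show. Counts are given in the order region probes called, higher, lower, region strands, all probes, and differences from the nearest gene. As reported they were 329, 188, 141, 201, 5731 and 131, with a region median of 0.19. Higher calls fell to 92 under quantile normalization (all probes 3796, median -0.011). Normexp gave 210, 93 higher, 118 region strands, 214 gene differences, 3 strand differences and a median of 0.0179, and the authors' log2 values 212, 92 higher, 119, 215, 3 and 0.0133. Without a background filter there were 105, 77, 28, 78, 1350 and 61 (median 0.53), and with all 6 arrays above background 88 lower calls. Array weights gave 615, 380, 235, 346, 9598, 430 and 1 strand difference (median 0.0731). A threshold of 0.01 gave 88, 40, 48, 56, 1718 and 16, and a 2-fold limit 181, 99, 82, 113 and 2335. The brightest probe per region strand gave 140, 83 and 57. With slide as a block there were 271 gene differences. Leaving out 1 array gave 121 to 425 region probes, 61 to 261 higher, 60 to 164 lower, 74 to 244 region strands, 2027 to 6449 of all probes, 13 to 214 gene differences and a median of 0.0323 to 0.338. Fitting the labels' replicate number as a block (replicate block) gave 98, 53, 45, 64, 1370 and 4. Deviations of same-numbered arrays from their group means correlated at -0.27, -0.46 and 0.28. With 3 arrays per group such deviations constrain each other, so these values cannot decide whether the numbers pair the samples. The cause of each change was not tested, apart from the fewer probes or arrays that filters and omissions leave. Centring on the median, trend with robust moderation, and distances from region edges kept the counts within 1.5 times. Of the 41 probes named by rule, 31 were called, none changed sign with a call, and 38 kept their side of the threshold under quantile normalization, 37 under normexp and on the authors' values, and 30 to 39 with an array left out; the other changes were losses of a call except 1 gain each with slide as a block and without positive replicate 1 and 2 with array weights.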
